A study of Mus musculus with 10 samples.

Results

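The genes described here encode 9 RNA-binding proteins that have been reported to bind N6-methyladenosine (m6A) in RNA without a YTH domain: Igf2bp1, Igf2bp2, Igf2bp3, Hnrnpa2b1, Hnrnpc, Fmr1, Fxr1, Fxr2 and Prrc2a. Their own transcripts were examined for m6A peaks in cultured mouse hypothalamic neural progenitor cells. A peak is an interval in which RNA fragments captured with an m6A antibody (IP) were enriched over input RNA. A peak belonged to a gene if it overlapped the RefSeq span of the gene on GRCm38.p6 by at least 50% of the shorter of the pair, and where a gene had peaks on both strands, the strand with more IP reads was kept. By this rule 13 of the 21195 peaks of the map lay in 6 of the 9 genes. RefSeq protein-coding genes had a peak by the same rule in 44.2% of cases (9680 of 21900 genes). Whether a gene without a peak was expressed was not known, because the table lists only reads inside peaks.

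The cells came from the hypothalamus of E14.5 mouse embryos and carried a floxed Mettl14 gene, which encodes a subunit of the m6A methyltransferase. They were grown with FGF2 and EGF (20 ng/ml each), N2 and B27 without VA. The Mettl14 knockout cells received a lentivirus for EGFP with Cre recombinase, and the control cells a lentivirus for EGFP alone. All cells of both groups were floxed, transduced and sorted for EGFP after 72 hours. The labels list 4 m6A IP libraries and 1 input library of knockout cells, and 4 IP libraries and 1 input library of control cells. Each peak had 1 IP and 1 input read count with no genotype or library name, so knockout and control cells could not be compared for any of the 9 genes, and no value has a replicate SD. The counts over all peaks came to 72.3 M IP and 26.6 M input reads (M, 1000000), and how deep each library was sequenced was not known. By the authors' deposited table the adjusted p was under 0.05 for 21187 of 21195 peaks, which rounds to 100%, and all 13 peaks described here were among them. Of 11 neural progenitor marker genes 7 had a peak, and Vim, Hes5, Fabp7 and Msi1 had none. Of 9 hypothalamic markers 5 had one and Rax, Six6, Otp and Sim1 none, while a peak was found in 4 of 5 oligodendrocyte lineage, 2 of 5 neuronal, 1 of 8 microglial, blood and vessel, and 0 of 4 mesenchymal markers. These counts show peaks, not expression.

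The m6A mark is written on nascent messenger RNA, and proteins that recognise it set the fate of the transcript. YTH proteins hold the methylated base in a binding pocket. The proteins described here bind methylated transcripts by other means, some of them through KH or RGG domains or through RNA that unfolds around the mark. The IGF2BP proteins stabilise their messenger RNAs and promote their translation, hnRNP A2/B1 and hnRNP C act in the nucleus on RNA processing, FMRP and its relatives FXR1 and FXR2 control translation and transport of neuronal transcripts, and PRRC2A stabilises methylated Olig2 messenger RNA in mouse oligodendrocyte progenitors.

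In each of the families with more than 1 gene, 1 gene had no peak while its relatives did. Igf2bp2 had 2 peaks and Igf2bp3 1 peak, against none in Igf2bp1. Hnrnpa2b1 had 3 peaks and Hnrnpc none. Fmr1 had 2 peaks, Fxr1 had peaks on both strands, and Fxr2 had none. Prrc2a had 4 peaks, a number that 10.9% of protein-coding genes with a peak reached or passed. None of Fxr2, Hnrnpc and Igf2bp1 had a peak next to its ends. The nearest peak to Fxr2 (chromosome 11, 69632971 to 69653297) lay 3295 bases away in Sox15, that to Hnrnpc (chromosome 14, 52073377 to 52104039) lay 56288 bases away in Rpgrip1, and that to Igf2bp1 (chromosome 11, 95957163 to 96005944) lay 125340 bases away.

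The 13 peaks had a median log2 fold change of 3.20 by the authors' deposited table, beside 3.06 over all peaks, with 8 of the 13 higher than the median of all peaks, where 50% of all peaks lie by construction. Their extremes lay far apart. Their 25 and 75 percentiles, 2.56 and 3.47, were closer together than those of all peaks, 2.36 and 3.83, by the authors' deposited table. The lowest, 1.03 in Prrc2a, stood at percentile 0.955 of all peaks by the authors' deposited table, and the highest, 4.94 inside Fxr1, at percentile 97.0. The 13 peaks held 95290 IP and 26530 input reads, and Prrc2a alone gave 92.3% of these IP reads and 71.6% of these input reads.

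In the IGF2BP family, all peaks lay at the 3' end, with midpoints at 98.5% of the gene span in Igf2bp3 and at 99.4% and 99.9% in Igf2bp2. The proteins of this family are abundant in embryonic tissue and bind messenger RNA through KH domains. Igf2bp2, on the minus strand of chromosome 16 (22059009 to 22163299), had peaks at 22059009 to 22059158 and at 22059459 to 22059708. The peak nearer the end reached the last annotated base of the gene and held 68 IP and 46 input reads, a ratio of 1.48 (exact 95% interval 1.002 to 2.20). The other, 300 bases upstream of it, held 108 IP and 65 input reads, a ratio of 1.66 (1.21 to 2.30). These intervals overlapped. They take the deposited numbers as counts of independent reads and cover counting error at most. The authors' deposited table gave log2 fold changes of 3.29 and 3.20. Both peaks rested on few reads, with IP counts at percentiles 4.38 and 9.60 of all peaks.

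Igf2bp3 had its single peak on chromosome 6 (49087148 to 49087272, minus strand), 1930 bases from the 3' end of a span of 130.3 kb. It held 488 IP and 744 input reads. The ratio of 0.656 (exact 95% interval 0.584 to 0.736) was the lowest of the 13, at percentile 0.927 of all peaks with input reads. The authors' deposited table gave a log2 fold change of 1.34, so the strongest peak of Igf2bp3 stood at percentile 1.39 among protein-coding genes with a peak. Malsu1, a gene for a mitochondrial ribosome assembly factor, overlaps Igf2bp3 in RefSeq. Its span (49073795 to 49139144) holds the Igf2bp3 peak as well. The nearest peak outside the rule lay on the plus strand 369 bases beyond the end of Igf2bp3, inside the Malsu1 span, with 843 IP and 265 input reads and a log2 fold change of 3.58 by the authors' deposited table. All 13 peaks inside the rule were overlapped by their gene over their whole length, so none lay close to the 50% threshold.

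The Igf2bp3 peak had more input reads per length and a lower ratio than either Igf2bp2 peak. It held 744 input reads on 125 bases, or 5952 input reads per kb of peak, against 307 and 260 input reads per kb in the Igf2bp2 peaks. Its ratio of IP to input reads was below both Igf2bp2 ratios, and its interval overlapped neither.

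Hnrnpa2b1, which encodes a nuclear protein that also binds primary microRNA transcripts, had 3 peaks in the middle of the gene on the minus strand of chromosome 6. From 5' to 3' these were at 51466014 to 51466338, 51465038 to 51465963 and 51463168 to 51464762, separated by 50 and 275 bases. The first held 1617 IP and 1134 input reads, a ratio of 1.43 (exact 95% interval 1.32 to 1.54). The second held 78 IP and 49 input reads, a ratio of 1.59 (1.10 to 2.32). The third held 110 IP and 39 input reads, a ratio of 2.82 (1.94 to 4.18). The ratio of the third peak was above that of the first, with intervals that did not overlap, while the intervals of the third and the second overlapped. Overlap of intervals is not a test, and no test between peaks was made. By the authors' deposited table the log2 fold changes in the same order were 3.12, 3.47 and 4.24. The gene therefore had its highest fold change where it had the fewest input reads, 24.5 per kb of peak, against 3489 per kb in the first. Peaks are written as single blocks, so a peak length, and with it a density per kb, can include intron.

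Hnrnpc had no peak. Of 25 other genes for hnRNP proteins and their relatives 21 had a peak, with Hnrnpab, Hnrnpk, Pcbp2 and Raly without, beside 44.2% of all protein-coding genes with a peak. Hnrnpdl and Hnrnpr, both hnRNP genes, led the list, with 5.81 and 4.74 as their log2 fold changes by the authors' deposited table. The Hnrnpdl peak rested on few reads, 310 IP and 42 input, against 2617 IP and 495 input reads in Hnrnpr. The median over the 21 genes was 3.20 for the strongest peak of a gene, beside 3.51 over all protein-coding genes with a peak, by the authors' deposited table. The peak kept for Ptbp1 lay on the strand opposite to its promoter.

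**Figure D1:**
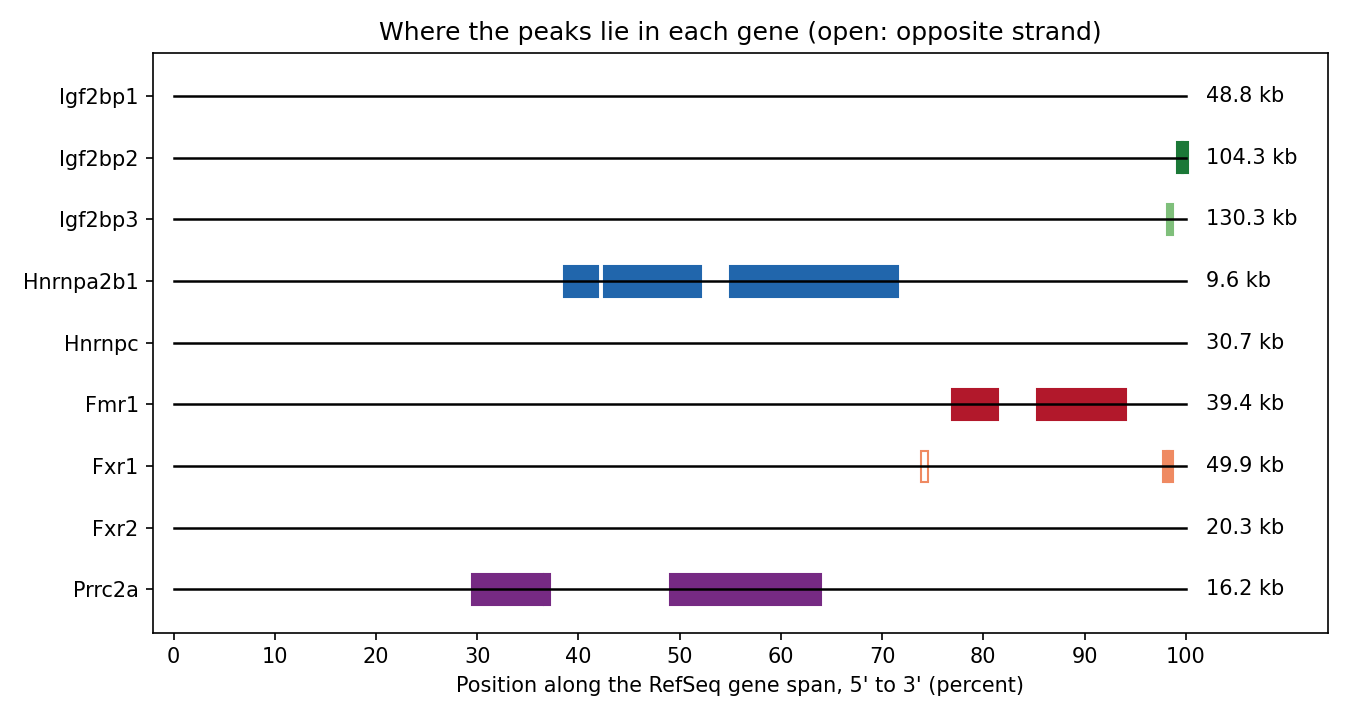
Position of each peak along the RefSeq span of its gene, drawn from the 5' end (0) to the 3' end (100 percent), with the span length at the right. Filled boxes are peaks on the strand of the gene, the open box is the minus-strand peak inside Fxr1, and boxes narrower than 0.6 percent of the span were widened to be visible, so that neighbouring peaks of Igf2bp2, Fxr1 and Prrc2a run together. Peaks of Igf2bp2, Igf2bp3 and the plus strand of Fxr1 sit in the last 10 percent. Midpoints lie between 40.3 and 63.3 percent in Hnrnpa2b1 and between 31.3 and 56.5 percent in Prrc2a.

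Fmr1, whose product FMRP is lost in fragile X syndrome, had 2 long peaks on the plus strand of chromosome X. The first (68708873 to 68710653) held 1161 IP and 1511 input reads, a ratio of 0.768 (exact 95% interval 0.711 to 0.830). The second (68712150 to 68715616), which ended 2347 bases before the 3' end, held 3377 IP and 3887 input reads, a ratio of 0.869 (0.829 to 0.910). Both had fewer IP than input reads, and the intervals touched only at the edges (upper limit 0.830 of the first and lower limit 0.829 of the second). Such ratios are not corrected for library depth. By the authors' deposited table the log2 fold changes were 2.56 and 2.45, in the reverse order of the read ratios. Both entries carried a pair of gene identifiers, and what the second identifier stands for was not resolved here.

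In Fxr1 the rule kept a peak inside the gene span but on the strand opposite to its promoter. The minus-strand peak on chromosome 3 (34056945 to 34057269) held 315 IP and 66 input reads, a ratio of 4.77 (exact 95% interval 3.65 to 6.32), with a log2 fold change of 4.94 by the authors' deposited table. The RefSeq promoter of Fxr1 lies on the plus strand. The minus-strand gene Dnajc19, which encodes a mitochondrial co-chaperone, ends 11 bases from this peak, so the peak lies outside the Dnajc19 span. The identifier of the peak differed from that of the plus-strand peaks, and which gene it stands for was not resolved here. On the plus strand, 2 peaks ended 936 and 711 bases before the 3' end of Fxr1. Both also lay inside the Dnajc19 span (34057280 to 34081354), on the strand opposite to the Dnajc19 promoter. The peak at 34068970 to 34069044 held 60 IP and 27 input reads, a ratio of 2.22 (1.39 to 3.64). The peak at 34069145 to 34069269 held 213 IP and 76 input reads, a ratio of 2.80 (2.15 to 3.69). Their log2 fold changes by the authors' deposited table were 3.91 and 4.14. With the strand of the RefSeq promoter in place of that with more IP reads, chosen here after seeing the values, the 9 genes had 14 peaks with a median log2 fold change of 3.24 by the authors' deposited table, and 6 genes still had a peak. Of 7762 protein-coding genes with a peak and a promoter window of 1 strand, the rule kept the strand opposite to the promoter in 456 (5.87%).

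Fxr1 and Fmr1 differed in their own-strand peaks. Both plus-strand Fxr1 peaks had ratios of IP to input reads above 1, with intervals that overlapped neither interval of Fmr1. Fmr1 held 4538 IP and 5398 input reads in its peaks, against 273 IP and 103 input reads in the plus-strand peaks of Fxr1. The peaks differed in length, 1781 and 3467 bases in Fmr1 against 75 and 125 bases in Fxr1. Per kb of peak, IP reads were 652 and 974 in Fmr1 against 800 and 1704 in Fxr1. Input reads per kb were 848 and 1121 in Fmr1 against 360 and 608 in Fxr1. Of 7 genes for partners of FMRP 6 had a peak and Cyfip1 did not, beside 44.2% of all protein-coding genes with a peak. The strongest were in G3bp2 and G3bp1, which encode stress granule proteins, at log2 fold changes of 5.02 and 4.87 by the authors' deposited table. The G3bp2 peak held 355 IP and 65 input reads, and the G3bp1 peak 5059 IP and 715 input reads. The peak kept for Cyfip2 lay opposite to its promoter.

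Prrc2a, a gene for a large proline-rich cytoplasmic protein, held 1 of the most read peaks of the map. Its peak at 35159934 to 35160528 on chromosome 17 (minus strand) held 78312 IP and 16722 input reads, ranks 58 and 121 of 21195 peaks. The ratio was 4.68 (exact 95% interval 4.61 to 4.76). This was the only peak of the 9 genes above percentile 95 of all peaks in either read count. Next to it in the 3' direction, each after a gap of 25 bases, lay a peak at 35159393 to 35159908 and a peak at 35159293 to 35159367. The first of these held 493 IP and 155 input reads, a ratio of 3.18 (2.65 to 3.83). The second held 245 IP and 271 input reads, a ratio of 0.904 (0.757 to 1.08). From 5' to 3' over these 3 adjoining peaks the ratio fell, with intervals that did not overlap. The fourth peak, at 35154938 to 35157357, lay 1935 bases further on and held 8918 IP and 1841 input reads, a ratio of 4.84 (4.61 to 5.10), whose interval overlapped that of the most read peak.

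The authors' deposited table gave log2 fold changes of 3.82, 2.93, 1.03 and 3.34 for these peaks from 5' to 3'. By these values the strongest Prrc2a peak stood at percentile 62.0 among protein-coding genes with a peak, while by IP reads it stood at percentile 99.2. The paralogues Prrc2c and Prrc2b both had peaks, the strongest at 4.42 and 3.54 by the authors' deposited table, with 10527 IP and 3066 input reads in Prrc2c and 10845 IP and 2704 input reads in Prrc2b. Olig2, whose messenger RNA PRRC2A binds in mouse, had a peak with 228230 IP and 43210 input reads and a log2 fold change of 3.34 by the authors' deposited table.

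**Figure D2:**
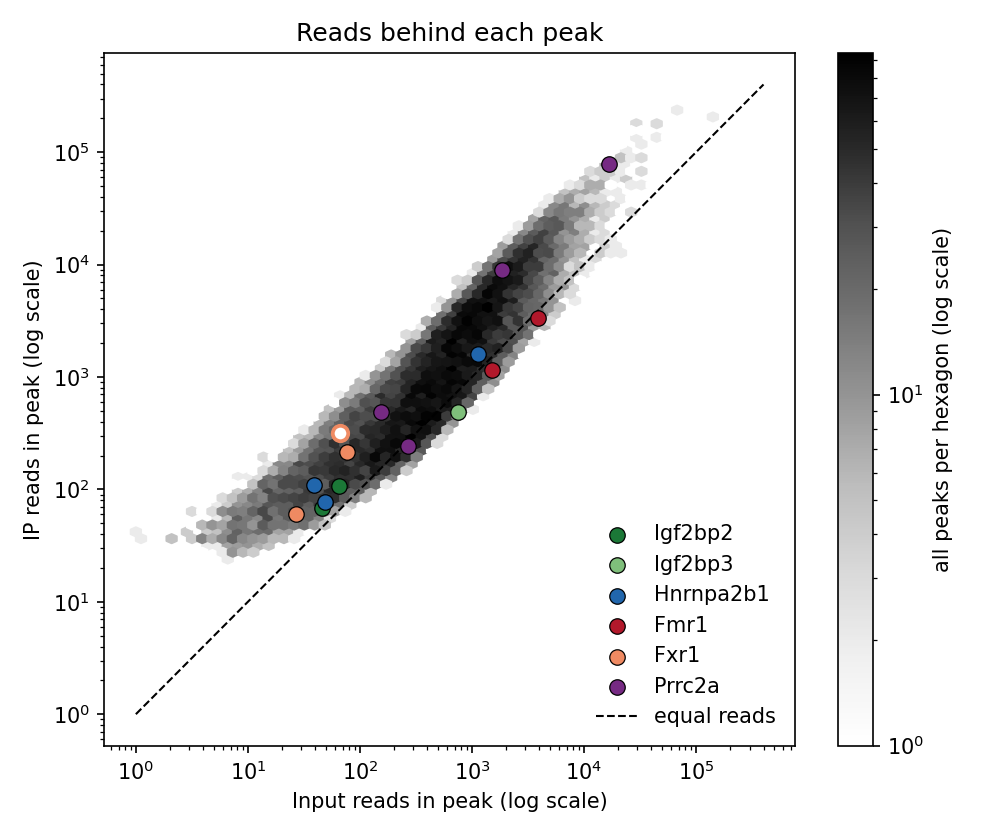
IP reads (vertical, log scale) against input reads (horizontal, log scale) of each peak with input reads, with all peaks as grey hexagons and the peaks of the 6 genes as coloured points (open: minus strand inside Fxr1). The most read Prrc2a peak, 78312 IP and 16722 input reads, sits near the top of the cloud, and 4 of the points lie below the dashed line of equal reads.

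Over the 13 peaks, 4 had fewer IP than input reads, which was the case for 11.3% of all peaks. They were both Fmr1 peaks, the Igf2bp3 peak and the shortest Prrc2a peak. The highest ratios were 4.84 and 4.68 in Prrc2a and 4.77 on the minus strand inside Fxr1, above the 75 percentile of all peaks, 3.82. Along the gene, 3 of the 13 peaks had their midpoint in the last 10% of the span, as did 36.9% of the 19334 pairs of a peak and a protein-coding gene formed by the rule in which the midpoint lay inside the span (of 19467 pairs). With the strand of the promoter it was 5 of 14. The peaks of Prrc2a had midpoints between 31.3% and 56.5% of the span and those of Hnrnpa2b1 between 40.3% and 63.3%. Those of Fmr1 lay at 79.2% and 89.7%.

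The order of the genes depended on the measure. Across the 13 peaks, which share the same pooled libraries, Spearman's correlation of the deposited log2 fold change with the log2 ratio of the reads (0.5 added to each count) was 0.780, beside 0.854 over all peaks. Both measures compare IP with input at the same peaks, so their correlation is no independent check. The 13 peaks also lie in only 6 genes and are not separate units. The deposited value exceeded the log2 ratio by 1.07 to 1.59 in the 4 Prrc2a peaks. In the peaks of Igf2bp2, Hnrnpa2b1 and Fmr1 the excess lay between 2.47 and 2.94, and in Igf2bp3 it was 1.95. The median over all peaks was 1.88, with 0.975 and 2.80 as the 5 and 95 percentiles. The Prrc2a peaks were thus on the low side, at percentiles 6.31 to 25.2 of this excess, and the first Fmr1 peak at percentile 99.2. How the authors scaled it was not given in the sources used here. By the deposited value, both Fmr1 peaks lay above the shortest Prrc2a peak by at least 1.41 on the log2 scale, while by reads their ratios were lower than that of this Prrc2a peak, with overlapping intervals.

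**Figure D3:**
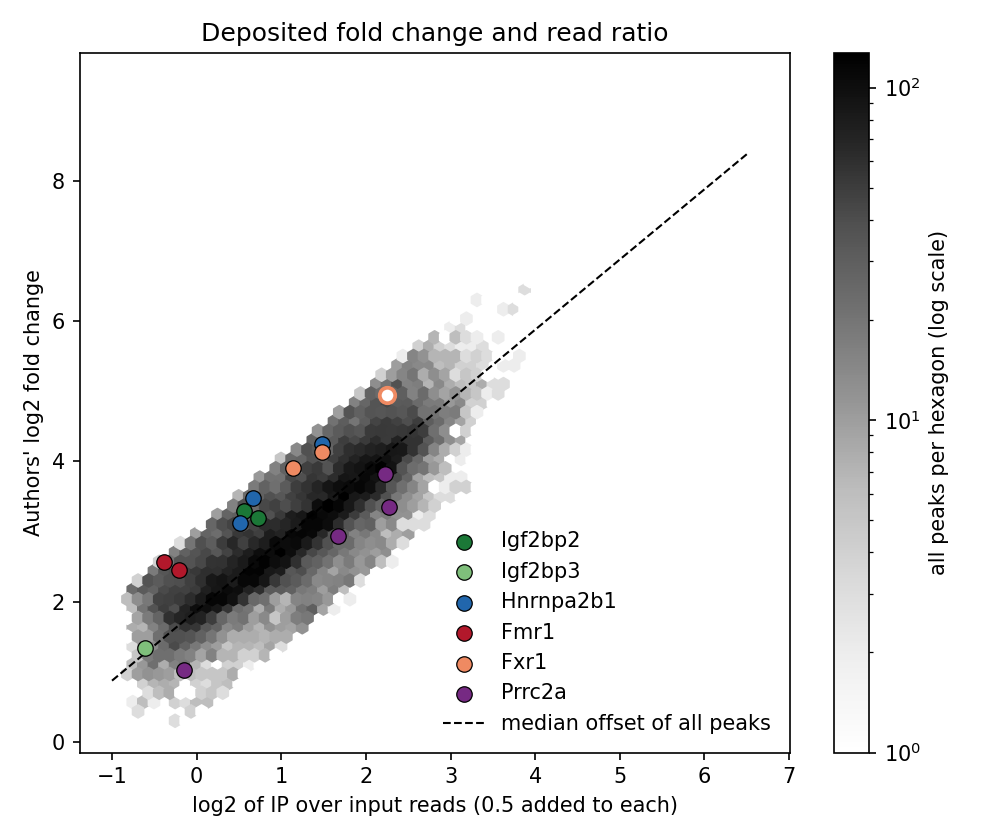
Log2 fold change from the authors' deposited table (vertical) against the log2 ratio of IP over input reads with 0.5 added to each count (horizontal), with all peaks as grey hexagons and the peaks of the 6 genes as coloured points (open: minus strand inside Fxr1). The dashed line marks the median excess of all peaks, 1.88, and the Prrc2a points lie below it while those of Fmr1, Hnrnpa2b1, Igf2bp2 and Fxr1 lie above it.

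Among the other genes of the m6A machinery, 4 of 5 YTH reader genes had a peak, with Ythdc2 as the exception. The strongest peak stood at a log2 fold change of 5.09 in Ythdf3, 4.87 in Ythdc1, 4.76 in Ythdf2 and 3.76 in Ythdf1 by the authors' deposited table. The non-YTH genes with a peak ran from 1.34 to 4.94, or to 4.24 without the minus-strand peak inside Fxr1, with a median of 3.56 over the 6 genes, against 4.81 over the 4 YTH genes. The same median over all protein-coding genes with a peak was 3.51, near that of the non-YTH genes. A strongest peak is a maximum over the peaks of a gene, and genes differ in their number of peaks. Of the writer genes 8 of 9 had a peak, all but Mettl3, led by Wtap and Mettl14 at 4.73 and 4.41 by the authors' deposited table, and both eraser genes had one, Fto at 4.61 and Alkbh5 at 2.15. No test was made between these lists, and all genes share the same pooled libraries. The share of all protein-coding genes with a peak, 44.2%, stands beside each count of genes with a peak in this paragraph. Among 14 targets and partners of the IGF2BP proteins 9 had a peak, the strongest in Actb and Cd44 at 4.23 and 4.14 by the authors' deposited table. The strongest peaks of these 9 genes ran from 1.57 to 4.23. Igf2, H19, Hmga2, Lin28a and Lin28b had none. Of 8 other proteins proposed to sense m6A 6 had a peak in their gene, all but Lrpprc and Eif3b, led by G3bp1 and Eif3a at 4.87 and 4.81 by the authors' deposited table. In this list, which shares G3bp1 with the FMRP partners, Rbmx with the hnRNP genes and Elavl1 with the IGF2BP targets and partners, the peak kept for Snd1 lay opposite to its promoter.

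**Figure D4:**
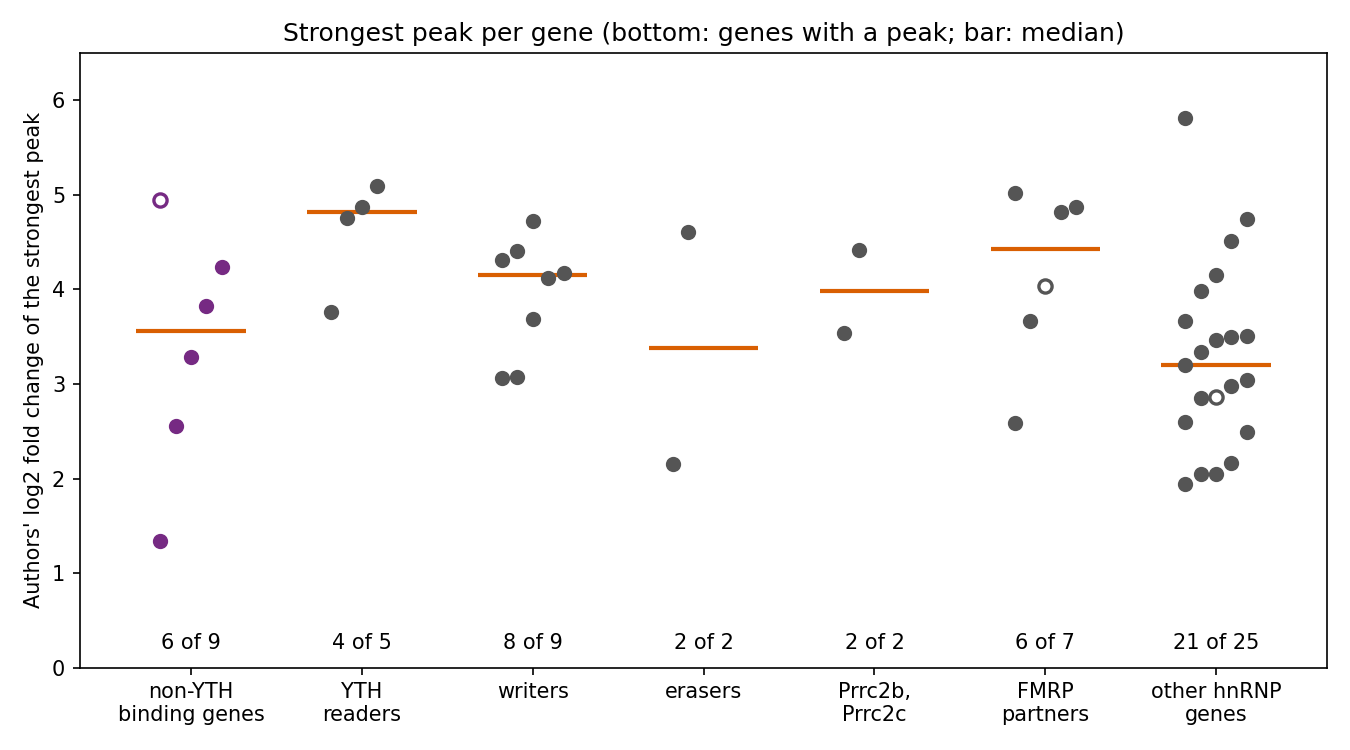
Log2 fold change of the strongest peak of each gene by the authors' deposited table (vertical), by gene list, with bars at the list medians and, along the bottom, how many genes of how many had a peak. Open points are genes whose kept peak lies opposite to their promoter. The non-YTH genes run from 1.34 to 4.94 and the YTH readers from 3.76 to 5.09.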

How the data were processed

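Per the labels, m6A-containing fragments of polyadenylated RNA were enriched with an antibody and sequenced beside input RNA. Per the submitters' processing notes, bcl2fastq 2.17.1.14, Trimmomatic 0.32, STAR 2.5.2a and the builds GRCm38.p6 and GRCh38.p13 were used. Not given in the sources used here were the peak caller, the counting tool, the treatment of reads shared by near-identical genes, and which libraries were pooled. The deposited read counts are whole numbers per peak, 1 column for IP and 1 for input, per the file headers; no source says if libraries were summed or averaged. The deposited log2 fold changes, p-values and scores are the authors' own, and the score is minus log2 of the adjusted p in all 21195 rows (tolerance 1e-06).

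Peaks were matched to RefSeq gene spans of GRCm38.p6, a table without exons, with Python 3.11.15 and pandas 2.3.3. Gene strand came from RefSeq promoter windows. Ratio intervals are exact Clopper-Pearson 95% intervals (SciPy 1.17.1). These intervals take the deposited numbers as counts of independent reads. PCR copies are not independent molecules, so the intervals can be too narrow even for counting error, and they leave out spread between libraries. The overlap rule and intervals were tested on simulated data. The planned comparison of knockout with control was not run, since no column belonged to a genotype. All peaks of the 9 genes are named, with the 2 strongest genes of each comparison list, all YTH readers, and the genes without a peak except in the neuronal, oligodendrocyte, microglial, blood and vessel, and mesenchymal marker lists. Strand exceptions, Olig2 and Dnajc19 were named after their values were seen. The members and lists were chosen with earlier results of these data known.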

Additional observations from a re-analysis of the deposited data

How the results depend on the processing

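No paired analysis was possible because no column of the peak table belonged to a replicate or a genotype, and for the same reason no other model of the knockout comparison was run. The number of genes with a peak (6), the number of peaks (13) and the median log2 fold change (3.20) were recomputed with other rules for overlap (2), strand (2) and minimum reads or p (2), and with the strand of the promoter, chosen after seeing the values. Genes with a peak numbered 5 under an adjusted p below 1e-10, without Igf2bp3, and 6 otherwise, peaks between 10 and 15. The median log2 fold change was 3.03 with at least 50 input reads, since peaks with fewer were removed, and between 3.20 and 3.29 under the other 6. Taking the peak with the most IP reads as a gene's strongest gave Hnrnpa2b1 3.12 in place of 4.24, Igf2bp2 3.20 in place of 3.29 and Fmr1 2.45 in place of 2.56. Scaled by the totals over all peaks, every read ratio became 2.71 times smaller (0.242 to 1.78), and 8 of the 13 were under 1, as were 57.7% of all peaks with input reads. A pseudocount moved no ratio by more than 0.817%. Depth limits Igf2bp2, Fxr1 and the Hnrnpa2b1 peaks with the 2 higher fold changes, with 27 to 76 input reads each.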

Other observations

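The amount by which the deposited log2 fold change exceeds the log2 ratio of the reads varied less among peaks of the same identifier entry than over all peaks. Over 5433 identifier entries with at least 2 peaks (15444 peaks), its SD within entries was 0.389, against 0.533 over all of these peaks. The SD within the gene was 0.226 over the 4 Prrc2a peaks, 0.205 over the 2 Fmr1 peaks and 0.105 over the 3 Hnrnpa2b1 peaks. The median was 1.22 in Prrc2a, while in the other genes with 2 or more own-strand peaks it was 2.80 in Fmr1, 2.76 in Hnrnpa2b1, 2.71 in Fxr1 and 2.60 in Igf2bp2. These values rest on 2 to 4 peaks each.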
